A study of Mus musculus with 6 samples.

Results

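The genes described here are 31 genes of fatty acid oxidation and of the response to the peroxisome proliferator-activated receptors (PPARs), taken by gene symbol from the 55487 gene rows of each library. They cover the carnitine shuttle, the mitochondrial and peroxisomal beta-oxidation enzymes, the electron transfer flavoprotein, the receptors Ppara and Ppard with the coactivator Ppargc1a, and target genes outside the oxidation spiral. All 31 symbols were found once, and all 31 genes passed the filter on low counts that left 17396 genes for testing. They were chosen by their place in the pathway, with earlier results of these data known.

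The libraries are bulk RNA-seq of mammary tumours from MMTV-PyMT mice, in which the mouse mammary tumour virus promoter drives the polyoma middle T oncoprotein in mammary epithelium. The agonist group held 3 tumour libraries after treatment with DMHCA, a steroidal agonist of the liver X receptors (LXRs), by mouth in gel cups from 6 weeks of age onwards, and the vehicle group held 3 tumour libraries after vehicle alone. All 6 samples carried the transgene. The labels give no strain, sex, age at collection or tumour size, nor whether each library is from its own animal or its own tumour. Below, a tumour means only the sample behind 1 library. Titles of the agonist libraries all carry 1 code and those of the vehicle libraries another, so what the code stands for (an animal or a line, for example) and the treatment cannot be told apart, and the error terms hold only the variation among these libraries, part of which may be technical. Libraries summed to between 36577451 and 42595799 expected counts, and 3 counts, the limit that a count of 0 allows, corresponded to at most 0.0813 CPM (counts scaled to the library's size), a limit that covers counting error only. Epcam, the epithelial adhesion marker, was at 537 to 742 TPM (scaled for transcript length and depth) in all 6 tumours. Not every epithelial marker was as even: Krt19 was at 520 TPM in vehicle replicate 2 and 143 TPM in vehicle replicate 3. The LXR targets Abca1 and Abcg1, which export cholesterol, differed without overlap of the groups (log2 fold changes 0.85 and 0.86), Abca1 only barely so with 100.2 CPM in the lowest agonist against 99.9 in the highest vehicle library, and neither passed an adjusted p of 0.05.

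As background, long-chain fatty acids enter mitochondria as carnitine esters, and each turn of the beta-oxidation spiral then removes an acetyl unit through a dehydrogenase, a hydratase, a second dehydrogenase and a thiolase. The first dehydrogenase hands its electrons to the electron transfer flavoprotein. PPARs are nuclear receptors that bind fatty acids and, paired with the retinoid X receptor, switch on many of these genes. LXRs pair with the same partner. In the mammary gland, adipocytes and the capillary endothelium of the fat pad are known for strong expression of fatty acid uptake and PPAR target genes, and brown fat and muscle for strong oxidation.

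PPAR and LXR dimers read repeats of the half-site AGGTCA, so the RefSeq promoter windows (build GRCm38.p6, 250 bases before to 50 after the start) were searched for it on both strands. Windows were found for 25 of the 31 genes, and 5 of these, Acadm, Acadvl, Cd36, Cpt1a and Echs1, held the half-site (20%). Of all 27025 genes with a window, 18.1% held it, so the members' share was near that of all promoters. The complete repeats AGGTCANAGGTCA, the PPAR type, and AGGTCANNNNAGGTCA, the LXR type, were in 0 of the 25 windows, against 0.0481% and 0.0148% of all genes. These searches overlap, since each repeat contains the half-site. A match is only a description of letters, and its absence from this window says nothing about binding elsewhere. Shown are the 250 bases before the start of a medium-chain and a very-long-chain acyl-CoA dehydrogenase and of the fatty acid carrier Cd36, each free of annotated exons, with the half-site (or its reverse complement) in capitals. They lie at chr3:153944644-153944893, chr11:70015429-70015678 and chr5:17835897-17836146, all on the minus strand. The Cd36 window precedes a start used by RefSeq that lies inside the gene as GENCODE annotates it, downstream of the outermost start.
Acadm: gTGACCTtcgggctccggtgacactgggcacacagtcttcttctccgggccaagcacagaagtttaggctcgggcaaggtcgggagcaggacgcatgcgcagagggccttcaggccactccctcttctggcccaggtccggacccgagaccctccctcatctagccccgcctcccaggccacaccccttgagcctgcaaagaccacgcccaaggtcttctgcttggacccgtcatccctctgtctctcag
Acadvl: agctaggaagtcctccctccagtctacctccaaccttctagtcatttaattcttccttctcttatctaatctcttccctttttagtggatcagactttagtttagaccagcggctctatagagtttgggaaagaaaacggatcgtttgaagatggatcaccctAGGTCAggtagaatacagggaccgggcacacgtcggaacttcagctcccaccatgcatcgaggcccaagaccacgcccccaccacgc
Cd36: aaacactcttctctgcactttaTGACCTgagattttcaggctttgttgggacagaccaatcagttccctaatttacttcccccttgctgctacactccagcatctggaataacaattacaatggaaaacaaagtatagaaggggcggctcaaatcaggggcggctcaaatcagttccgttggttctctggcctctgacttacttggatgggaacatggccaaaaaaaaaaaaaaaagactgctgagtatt

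Across the 31 genes the agonist tumours had slightly more oxidation mRNA on average, and 0 genes passed the test. In CPM, 1 vehicle tumour, replicate 2, had as much as they did, but this depended on the scale. In the deposited TPM it lay below all agonist libraries for Acadl (75.5 against 84.3 to 98.9). For Cpt1a it lay within their range (7.95 against 7.59 to 11.4 TPM). The log2 fold change was positive for 26 genes and negative for 5, and its median was 0.14, whereas 49.3% of all tested genes were positive, with a median of -0.0049. Such a lean was not particular to these genes. Positive values were found for 10 of 10 skeletal muscle, 8 of 8 endothelial, 7 of 8 fibroblast and 7 of 8 macrophage markers. For brown adipocyte markers it was 4 of 5, for adipocyte markers 3 of 9 and for mammary epithelium markers 2 of 8. By edgeR 0 members had an adjusted p under 0.05 (background 0%), as DESeq2 and limma also gave, and the members' adjusted p-values ran from 0.990 to 0.993. At an unadjusted p under 0.05 there was 1 member, Ppard, against 3.09% of all genes. Leaving out each library in turn moved the median between 0.064 (without vehicle replicate 3) and 0.26 (without vehicle replicate 2) and the number of positive genes between 22 and 27.

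**Figure D1:**
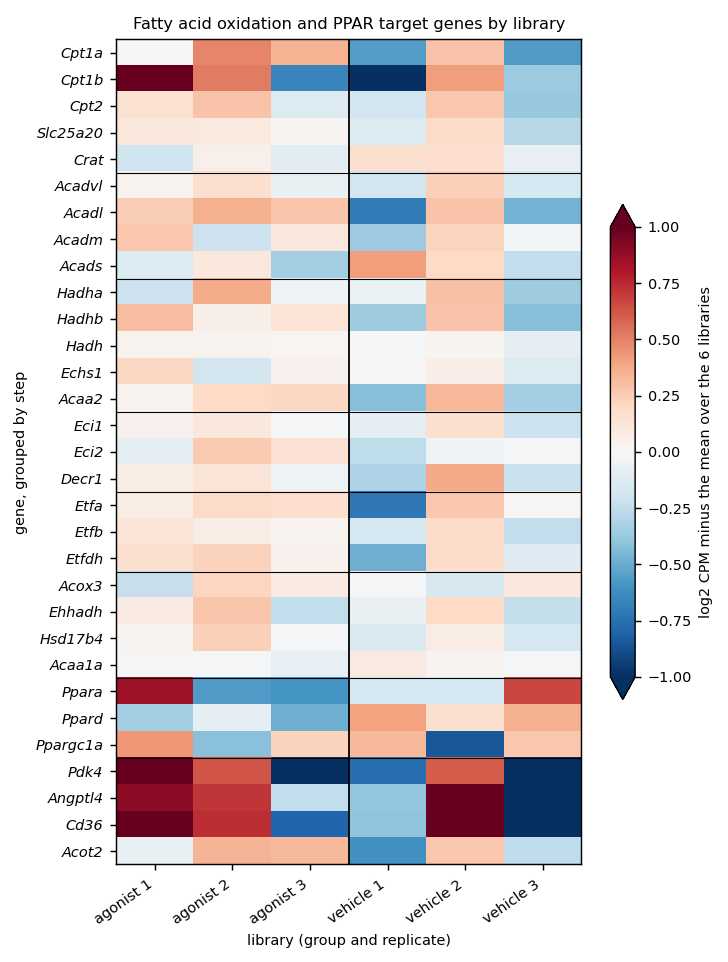
Level of each of the 31 genes (rows, grouped by step) in each library (columns), as log2 CPM minus the gene's mean over the 6 libraries; colours are capped at 1 in either direction. Averaged over the enzymes, agonist replicates 1 and 2 and vehicle replicate 2 lie above the gene means (0.09, 0.17 and 0.19), agonist replicate 3 near them (-0.0047) and vehicle replicates 1 and 3 below (-0.23 and -0.21).

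In CPM the order of the vehicle libraries recurred from gene to gene. On this scale, vehicle replicate 2 was the highest vehicle library for 20 of the 24 oxidation enzymes (83.3%), against 37.4% of all tested genes. It exceeded the lowest agonist library for all 24, against 79.3%. Averaged over the 24 enzymes, the log2 deviation from the 6-library mean was 0.09, 0.17 and -0.0047 in agonist replicates 1 to 3 and -0.23, 0.19 and -0.21 in vehicle replicates 1 to 3. The vehicle SD exceeded the agonist SD for 18 of the 24 enzymes (75%), against 63.9% of all genes. The genes share these libraries, so they are not independent observations of this order. In the deposited TPM only part of the enzymes had it. Cpt1a kept the order, at 5.66, 7.95 and 5.30 TPM in vehicle replicates 1 to 3. Hadh did not, at 78.1, 63.0 and 68.4 TPM, with vehicle replicate 2 below every agonist library (72.2 to 78.7 TPM).

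Entry into mitochondria begins with Cpt1a, the liver-type carnitine palmitoyltransferase that commits long-chain acyl groups to oxidation (chromosome 19, 3322334 to 3385733, plus strand, GRCm38). Its level was 29.3, 41.1 and 37.1 CPM in the agonist libraries and 19.9, 35.5 and 19.7 CPM in the vehicle libraries. Vehicle replicate 2 lay inside the agonist range and the other two vehicle tumours below it. The log2 fold change was 0.52 ± 0.26 (SE; 95% interval -0.09 to 1.13), and ran from 0.37 to 0.85 with each library left out in turn. The muscle-type isoform Cpt1b stood at only 0.668 to 2.28 CPM with agonist and 0.524 to 1.41 with vehicle (log2 fold change 0.69 ± 0.58, leave-one-out range 0.26 to 1.14). Per length, Cpt1a was 8.43 to 24.9 times as abundant as Cpt1b in TPM. A further isoform, Cpt1c, known from brain, was at 3.99, 4.19 and 1.76 TPM with agonist and 5.40, 1.48 and 2.05 with vehicle, close to Cpt1a (5.66 TPM) in vehicle replicate 1. The Cpt1b value is uncertain, because 81.4% of its exonic bases are shared with Gm44502 on the same strand, which had 5.18 to 8.93 CPM.

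The rest of the shuttle varied little. The carrier Slc25a20, which exchanges acylcarnitine for carnitine across the inner membrane, had 32.4, 32.1 and 30.6 CPM with agonist and 27.4, 34.1 and 24.7 with vehicle (0.14 ± 0.16, leave-one-out range 0.049 to 0.28). The agonist libraries were nearly equal, and vehicle replicate 2 was above them all. Cpt2, which returns the acyl group to coenzyme A, was at 30.9 ± 4.45 against 27.2 ± 6.56 CPM (SD, n = 3; log2 fold change 0.18 ± 0.21, leave-one-out range 0.057 to 0.39). Crat, the short-chain carnitine acetyltransferase, was the 1 shuttle gene with a lower agonist mean, at 42.1 ± 3.69 against 47.4 ± 4.32 CPM (-0.17 ± 0.14).

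**Figure D2:**
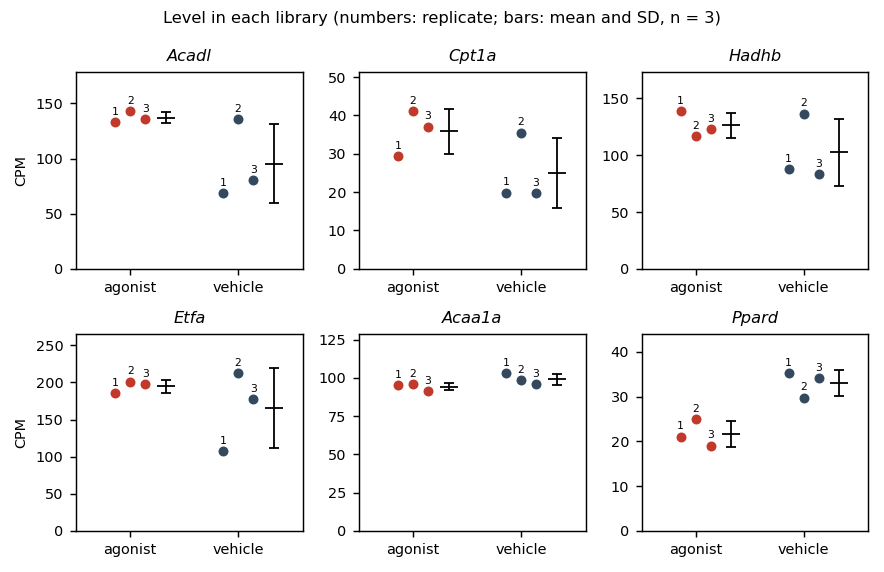
CPM of 6 genes in each library (points, numbered by replicate) with the mean and SD of each group of 3 (bars); all axes start at 0. In Acadl, Cpt1a and Hadhb, vehicle replicate 2 sits with the agonist libraries and vehicle replicates 1 and 3 below them, whereas for Ppard all 3 vehicle libraries (29.8 to 35.2 CPM) sit above all 3 agonist libraries (19.0 to 24.9 CPM).

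Among the acyl-CoA dehydrogenases, which start each turn of the spiral and differ in the chain length they accept, Acadl (long chain; chromosome 1, 66830839 to 66863277, minus strand) had the largest difference. It measured 133, 143 and 136 CPM with agonist and 69, 136 and 80.7 CPM with vehicle. The agonist tumours lay within a few percent of their mean, and vehicle replicate 2 reached that level while the other vehicle tumours did not. The log2 fold change was 0.53 ± 0.25 (95% interval -0.06 to 1.11; edgeR adjusted p = 0.990), and 0.34 without vehicle replicate 1 or 0.87 without vehicle replicate 2. Acadm, for medium chains, was at 142 ± 23.2 against 132 ± 26.1 CPM (0.10 ± 0.20, leave-one-out range -0.034 to 0.25).

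Acadvl, the membrane-bound very-long-chain enzyme, was at 144 ± 11.8 against 137 ± 23.8 CPM (0.07 ± 0.17, leave-one-out range 0.002 to 0.22), although 42.9% of its exonic bases lie under exons of Dvl2 on the opposite strand and the strand setting of the counting is not given in the sources used here. The short-chain enzyme Acads went the other way, with 45.7, 53.8 and 39.4 CPM with agonist and 66.9, 57.7 and 42.3 with vehicle (-0.26 ± 0.20, leave-one-out range -0.43 to -0.11). Its highest library was vehicle replicate 1, the library in which Acadl and Acadm were lowest. For Acadvl, vehicle replicates 1 and 3 were nearly equal, at 123.5 and 123.7 CPM.

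The trifunctional protein carries out the later steps on long chains. Its subunit genes Hadha and Hadhb lie head to head on chromosome 5 (30118304 to 30155162, minus strand, and 30155248 to 30184593, plus strand), with 86 bases between their starts. Hadhb, the thiolase subunit, had 139, 117 and 123 CPM with agonist and 87.8, 137 and 83.5 with vehicle (0.30 ± 0.21, leave-one-out range 0.18 to 0.55). Hadha, the subunit with hydratase and dehydrogenase activity, had 143, 214 and 161 CPM with agonist and 158, 202 and 129 with vehicle (0.08 ± 0.22, leave-one-out range -0.10 to 0.26). The pair did not move together in the agonist group: agonist replicate 1 was the highest library for Hadhb and the lowest agonist library for Hadha. In TPM the ratio of Hadha to Hadhb was 0.446, 1.01 and 0.656 with agonist and 0.872, 0.747 and 0.733 with vehicle.

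Other enzymes complete the spiral for shorter chains. Hadh, the short-chain hydroxyacyl-CoA dehydrogenase, was the steadiest of the 31 genes, at 104 to 105 CPM with agonist and 96.4 to 105 with vehicle (0.05 ± 0.13), a ratio of 1.09 between its highest and lowest library. The short-chain hydratase Echs1 was at 86.8 ± 11.7 against 84 ± 6.14 CPM (0.05 ± 0.15). The thiolase Acaa2 followed the pattern of Acadl, with 68.9, 77.1 and 77.6 CPM with agonist and 50.2, 84.5 and 53 with vehicle (0.25 ± 0.22, leave-one-out range 0.12 to 0.53). Vehicle replicate 2 was its highest library.

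Unsaturated fatty acids need extra enzymes that move or reduce double bonds. Of these, Eci2 (130 ± 16.2 against 112 ± 9.74 CPM, 0.21 ± 0.16) had the largest difference, with agonist replicate 1 at 113 CPM inside the vehicle range of 101 to 119. The isomerase Eci1 (0.08 ± 0.15, leave-one-out range 0.008 to 0.19) and the dienoyl-CoA reductase Decr1 (0.07 ± 0.20) had vehicle replicate 2 as their highest library, at 42.4 and 51.0 CPM.

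The electron transfer flavoprotein had the most abundant mRNAs of the whole group per length: Etfb was at 252 TPM and Etfa at 173 TPM over the 6 libraries, against 129 TPM for the next gene, Eci2. Etfa, the alpha subunit, had 185, 201 and 198 CPM with agonist and 107, 212 and 177 with vehicle, so a single low library, vehicle replicate 1, set its vehicle mean (0.23 ± 0.24, and -0.00059 without that library or 0.45 without vehicle replicate 2). Its oxidoreductase Etfdh, which passes electrons on to ubiquinone, was low in that library too, with 64, 67.5 and 59 CPM against 40.9, 65.3 and 52.6 (0.26 ± 0.19, leave-one-out range 0.11 to 0.44). The beta subunit Etfb was at 106 ± 3.65 against 96.4 ± 16.4 CPM (0.14 ± 0.16, leave-one-out range 0.064 to 0.28). In TPM, Etfa was 0.454 of Etfb in vehicle replicate 1 and 0.678 to 0.804 in the other libraries. Of the exonic bases of Etfb, 53% are shared in GENCODE M21 with a neighbour on the same strand, Gm45233. No gene row carried that name, so how the counting treated these bases is not known. The level of Etfb and the ratio are therefore uncertain.

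Peroxisomes shorten very long and branched chains with their own set of enzymes, and this step had the smallest median log2 fold change among those of the enzymes, 0.06. Acox3, an oxidase for branched chains (27.7 ± 4.21 against 26.7 ± 2.40 CPM, 0.05 ± 0.17), Ehhadh, the bifunctional enzyme and a known PPARα target (24.4 ± 4.34 against 23.1 ± 3.61, 0.08 ± 0.20), and Hsd17b4, the D-bifunctional enzyme (99.2 ± 9.71 against 88.7 ± 8.39, 0.16 ± 0.15), had higher agonist means within the spread. The thiolase Acaa1a was at 95.4, 96 and 91.5 CPM with agonist and 103, 98.4 and 95.9 with vehicle (-0.07 ± 0.13). Its groups met at 96 CPM, and its near-copy Acaa1b had 9.03 to 12.7 CPM. In CPM, neither Acox3 nor Acaa1a shared the library order of most mitochondrial enzymes. Vehicle replicate 2 was the lowest vehicle library for Acox3 and the middle one for Acaa1a.

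**Figure D3:**
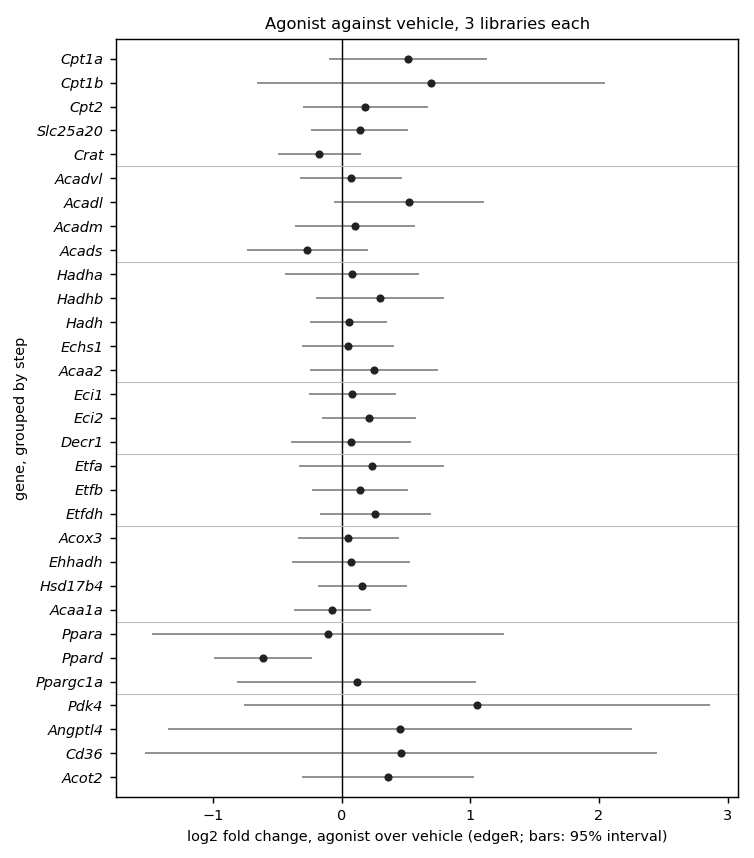
Log2 fold change of each gene, agonist over vehicle, with its 95% interval (bars), from the edgeR fit over all tested genes with 3 libraries a group. The interval of Ppard (-0.99 to -0.23) is the only one that leaves out 0, and those of Pdk4, Angptl4 and Cd36 are the widest.

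Of the regulators, Ppard, the PPAR of most tissues (chromosome 17, 28232700 to 28301474, plus strand), was the 1 gene of the 31 whose groups did not overlap in CPM. It was at 21.1, 24.9 and 19 CPM with agonist and 35.2, 29.8 and 34.1 with vehicle. Its log2 fold change was -0.61 ± 0.16 (edgeR adjusted p = 0.990). All 3 agonist tumours were below all 3 vehicle tumours, as for 4.22% of all tested genes, while 0 members were higher in all 3, against 3.02%. Leaving out each library kept the value between -0.72 and -0.52. In the deposited TPM its groups overlapped, at 8.17, 10.8 and 7.25 with agonist against 15, 9.96 and 13.8.

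Ppara, the receptor that governs oxidation in liver, was barely detected, with 0.239 to 0.65 CPM in the agonist and 0.319 to 0.572 CPM in the vehicle libraries. Per length, Ppard was 37.1 to 115 times as abundant as Ppara, so the delta form was the more abundant of the pair in every tumour. No direction can be read for Ppara (-0.10 ± 0.59, leave-one-out range -0.73 to 0.24). The coactivator Ppargc1a, which drives mitochondrial gene expression, was also low, at 8.02, 4.44 and 6.95 CPM against 7.43, 3.30 and 7.16 (0.12 ± 0.40). Its lowest library was vehicle replicate 2, where most of the enzymes were at the top of the vehicle group in CPM.

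Of the target genes outside the spiral, Cd36, Angptl4 and Pdk4 had the largest ratios of highest to lowest library among the 31 genes (9, 9.31 and 7.81). Cd36, the fatty acid carrier and scavenger receptor (chromosome 5, 17781690 to 17888801, minus strand), ran at 33.3, 23.9 and 8.28 CPM with agonist and 10.9, 33 and 3.71 with vehicle. Each group thus held both high and low tumours, and the log2 fold change was 0.46 ± 0.83 (0.008 without vehicle replicate 3, 1.57 without vehicle replicate 2). Angptl4, a secreted inhibitor of lipoprotein lipase that PPARs and hypoxia induce, ran at 45.6, 40.3 and 20.7 CPM against 18.7, 53.5 and 5.74 (0.45 ± 0.75, and -0.0091 without vehicle replicate 3 or 1.53 without vehicle replicate 2). Pdk4, the kinase that shuts pyruvate dehydrogenase when fat is burned, ran at 14.4, 6.52 and 1.84 CPM against 2.51, 6.42 and 2.04 (1.05 ± 0.77). Its mean difference lay largely in agonist replicate 1, without which it was 0.20, against 1.73 without vehicle replicate 2.

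The adipocyte markers of the tumour pieces varied in a like order. The summed level of 10 adipocyte markers, all 10 with counts in every library, was 489, 316 and 95.8 TPM with agonist and 195, 786 and 59.2 TPM with vehicle. The secreted factor Cfd made up 58.5% of that sum. Adiponectin (Adipoq) was at 17.7, 11.7 and 3.93 TPM with agonist and 7.75, 33 and 1.84 TPM with vehicle. Cd36 and Angptl4 both had agonist replicates 1 and 2 and vehicle replicate 2 as their upper 3 libraries and vehicle replicate 3 as their lowest, as the adipocyte sum did. Pdk4 had the same upper 3 libraries, but agonist replicate 3 was its lowest. The 5 brown fat markers, of which Elovl3 was at 0 in vehicle replicate 3, also had their highest sums in agonist replicate 1 and vehicle replicate 2 (260 and 229 TPM), with Ucp1 at 16.6, 2.84 and 0.510 TPM with agonist and 4.31, 11.5 and 0.480 with vehicle. In bulk tissue, fewer cells of a type and less RNA per cell cannot be told apart. With the adipocyte marker mean as a covariate, chosen after the data were seen, the log2 fold changes were 0.59 for Cd36, 0.75 for Angptl4 and 0.72 for Pdk4. In that fit 0 members were called, and 4 members (12.9%) had an unadjusted p under 0.05, against 2.86% of all genes.

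**Figure D4:**
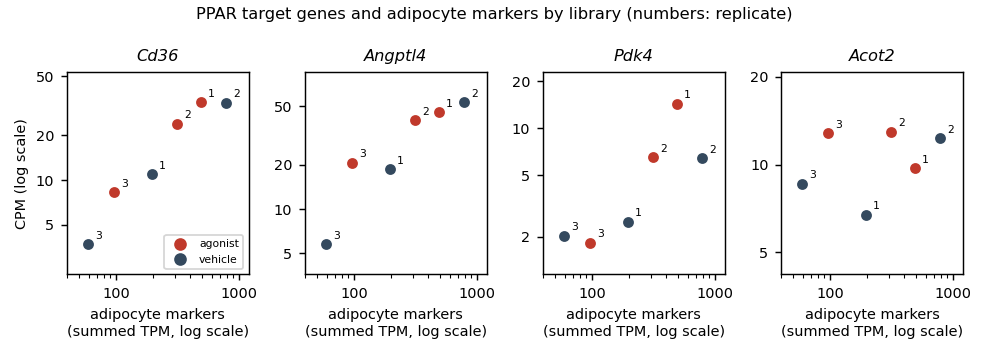
CPM of 4 PPAR target genes (vertical, log scale) against the summed TPM of 10 adipocyte markers, of which Cfd gives 58.5% (horizontal, log scale), 1 point per library, numbered by replicate and coloured by group. Cd36 and Angptl4 climb with the marker sum over both groups, from vehicle replicate 3 at the lower left, while Acot2 shows no such order.

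Acot2, a mitochondrial acyl-CoA thioesterase and known PPARα target, behaved more like the enzymes, at 9.70, 13 and 12.8 CPM with agonist and 6.72, 12.3 and 8.60 with vehicle (0.36 ± 0.29, leave-one-out range 0.18 to 0.62). Its close paralog Acot1, encoded next to it in a family of near-identical genes among which reads may be split, had 45.1, 86.9 and 63.4 CPM against 24.9, 98.5 and 24.8. For both genes vehicle replicates 1 and 3 were the lowest libraries, so the pair shared the order seen in Acadl.

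Markers of other cell types differed between the tumours too. The 8 fibroblast markers summed to 713 to 987 TPM with agonist but to 536, 1290 and 124 TPM in vehicle replicates 1 to 3, and the 8 macrophage markers to 426 to 472 against 357, 594 and 201 TPM. All of these markers had counts in every library, and both sums had vehicle replicate 2 highest and vehicle replicate 3 lowest of the 6 libraries, the order of the vehicle libraries for Cpt1a, Hadhb and Cd36. The 8 endothelial markers summed to 34.8, 27.2 and 21.4 TPM with agonist and 20.7, 26.2 and 16.2 TPM with vehicle. Their upper 3 libraries and their lowest were the same as for Cd36, Angptl4 and the adipocyte sum. The 10 skeletal muscle markers summed to 606 to 896 against 557 to 687 TPM. With the fibroblast marker mean as a covariate, also chosen after the data were seen, 23 members were positive and the median was 0.073. Whether these cells account for the differences in the oxidation genes was not tested.

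Which groups separated depended on the scale. In the deposited TPM, which carry no scaling between libraries, 5 members (Slc25a20, Acadl, Hadhb, Etfdh and Hsd17b4) had each agonist library above the whole vehicle group, against 6.32% of all tested genes, and 0 were lower in all 3, against 1.45%. Acadl was then at 84.3, 98.9 and 87.9 TPM with agonist and 49.2, 75.5 and 53.4 with vehicle. The TMM scaling factor of vehicle replicate 2 was 0.940, the lowest of the 6, which raises its CPM. That factor alone does not give the whole difference between the scales. Hadh had 105 CPM in both agonist replicate 2 and vehicle replicate 2 (factors 1.02 and 0.940), but 78.7 and 63.0 TPM. The remainder was not tested. By limma on log2(TPM + 1), Acadl had a log2 fold change of 0.62 (adjusted p = 0.990).

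A further 61 genes of fatty acid oxidation, ketone metabolism and PPAR signalling were listed beside the members, and 57 were tested. They did not lean one way: 31 had positive and 26 negative values (median 0.03), and 0 were called by edgeR in either direction (1 at an unadjusted p under 0.05). Pdk2, a pyruvate dehydrogenase kinase like Pdk4, had the smallest unadjusted p and was at 46.3, 51.3 and 50.4 CPM with agonist and 69, 58.7 and 66.5 with vehicle (-0.39 ± 0.13, edgeR adjusted p = 0.990). Every agonist library lay below every vehicle library for this gene in CPM. The same held for Acad9, a dehydrogenase that also assembles respiratory complex I (-0.34 ± 0.17), and for the nuclear receptor gene Esrra (-0.26 ± 0.14), which was named after its values were seen. Of the 57 tested genes, 4 were lower in every agonist library and 0 higher, against 4.22% and 3.02% of all tested genes. In the deposited TPM the groups of Pdk2, Acad9 and Esrra overlapped, each with vehicle replicate 2 below agonist replicate 2.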

How the data were processed

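RNA-seq of 3 agonist and 3 vehicle mammary tumour libraries was analysed from gene tables deposited by the authors, which hold RSEM expected counts and TPM (FPKM was not used). Per the submitters' processing notes, build GRCm38 was used with STAR 2.7.9a, RSEM 1.3.1, cutadapt 3.5, FastQC 0.11.9, R 4.1 and DESeq2 1.36.0. Strand setting, annotation release and filters: not given in the sources used here. Groups and replicate numbers come from the sample titles. Expected counts were rounded, and genes were kept by filterByExpr (minimum count 10, minimum total 15) and tested with edgeR 4.0.16 (R 4.3.3; TMM, robust quasi-likelihood F test, no covariates), with Benjamini-Hochberg adjustment over all 17396 tested genes and a threshold of 0.05. CPM use the TMM-scaled totals of the tested genes. SE is the log2 fold change over the square root of F. The scripts were tested on simulated data. Positions are from GENCODE M21. Members and gene lists were chosen with earlier results of these data known. All 31 members are named, with those reported here of the 4 further pathway genes of smallest unadjusted p (the others are not reported here), defining markers, Abca1 and Abcg1. Esrra, Elovl3, Cfd, Cpt1c, Krt19, Gm44502, Dvl2, Gm45233, Acaa1b and Acot1 were added after their annotation or values were seen. Alternatives were DESeq2 1.42.0, limma 3.58.1 (trend on log2(TPM + 1)), other scaling factors and filters, a replicate block, each library left out and 2 marker covariates.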

Additional observations from a re-analysis of the deposited data

How the results depend on the processing

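The number of members called was 0, as was that of the 61 further pathway genes, under each alternative run, and the median log2 fold change of the members stayed positive. With limma on TPM, DESeq2, a stricter filter (at least 1 CPM in at least 3 libraries), no filter, or scaling by upper quartiles or DESeq2 size factors, 26 members were positive and no member changed direction. The stricter filter dropped Ppara. DESeq2 called 4 of all tested genes. Upper-quartile scaling gave the members' median as 0.18 and that of all genes as 0.03. Without vehicle replicate 2, 7 members (22.6%) had an unadjusted p under 0.05, against 13.8% of all genes, and the smallest adjusted p among members was 0.264.

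Direction depended on single libraries for 10 members. With each library left out in turn, log2 fold changes ran from -0.034 to 0.25 for Acadm, -0.10 to 0.26 for Hadha, -0.050 to 0.14 for Echs1, -0.053 to 0.32 for Decr1, -0.00059 to 0.45 for Etfa, -0.046 to 0.17 for Acox3, -0.050 to 0.21 for Ehhadh, -0.73 to 0.24 for Ppara, -0.18 to 0.33 for Ppargc1a and -0.0091 to 1.53 for Angptl4. With the fibroblast marker mean as a covariate, values turned to -0.0022 for Acadvl, -0.0036 for Hadha, -0.018 for Echs1, -0.036 for Decr1 and 0.067 for Ppara. The causes were not tested.

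The labels do not say whether same-numbered samples of the groups belong together. Deviations from the group means correlated at 0.17, 0.038 and 0.063 over 17396 genes for numbers 1 to 3. Between unequal numbers the values ran from -0.11 to 0.055, so a pairing is neither shown nor excluded. With the number as a replicate block, 26 members were positive with a median of 0.16, 3 (9.68%, against 2.81% of all genes) had an unadjusted p under 0.05 and 0 were called.

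Counts per library were low for Ppara (10 to 24) and Cpt1b (23 to 84), and their 95% intervals ran from -1.47 to 1.27 and from -0.66 to 2.05. Cd36, with 149 to 1240 counts, had a wider interval (-1.53 to 2.45). How much of these widths comes from low counts was not tested.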
